A study of Mus musculus with 24 samples.

Results

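Endothelial cells of skeletal muscle from wild-type (WT) mice on high-fat diet (HFD) were compared with those of WT mice on chow. The comparison used 6 of the 24 arrays of the series, chosen by their labels for tissue, strain and diet: WT HFD muscle of trials 1, 2 and 3 against WT chow muscle of the same trials, paired by trial. The series asked how endothelium responds to a diabetogenic diet with and without galectin-3, and also holds aortic endothelium and a knockout strain (KO) that lacks part of the galectin-3 gene Lgals3. The WT animals were male C57BL/6J mice with no transgene and no deletion. From 8 weeks of age they received HFD, with 60% of calories from fat, or chow, with 12%, for 8 weeks. Each array carried amplified RNA of 1 pool of animals, given as 3 mice in the methods and as 3 to 4 in the labels. About 10000 live cells positive for endoglin (CD105) and negative for the leukocyte antigen CD45 were sorted per pool from a digest of plantaris, gastrocnemius and biceps femoris. A pool is therefore the unit of replication, and the spread between mice of a pool was not measured.

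The endothelium of muscle capillaries is the layer that glucose, insulin and fatty acids cross on their way from blood to muscle fibre. Lipoprotein lipase held at its luminal face releases fatty acids from circulating triglyceride, and binding and transport proteins carry them through the cell. The same cells set vessel diameter through nitric oxide, prostanoids, endothelin and angiotensin peptides, rest on a basement membrane of laminins and collagens, and present adhesion molecules, chemokines and antigens to leukocytes. Interferons switch on a common set of antiviral and antigen-presenting genes in them through STAT and IRF factors.

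Levels are given as the log2 of a probe's processed signal over the 75th percentile of its array, so a level of 0 is the signal of that percentile, and a difference of 1 between diets is a change of 2-fold. The 75th percentile lay between 3547 and 4753 intensity units on the 6 arrays, and between 59.5% and 75.7% of the spots were well above background, least on both arrays of trial 3. Probes well above background on all 3 arrays of WT HFD or of WT chow were tested, 24488 probes that covered 13173 named genes, each represented by its brightest probe. Of these probes 21971 were above background on all 6 arrays, 937 entered through the HFD arrays alone and 1580 through the chow arrays alone, and a probe of the last 2 kinds had to differ to some degree. On a scale of 10 probes that separate the strains on the other arrays (0 for WT, 1 for KO), the WT HFD array of trial 1 lay at 0.51, while the other 5 arrays lay between -0.08 and 0.12. The KO HFD muscle array of trial 1 lay at 0.48. Both HFD muscle arrays of trial 1 thus lay between the strains, at odds with their labels, which were kept. The criterion of all 3 trials and the comparison of WT with KO rest in part on these 2 arrays. Among the aortic arrays, HFD of trial 1 lay at 0.20 in WT and at 0.51 in KO. The comparison with WT aorta uses the first of these. Several list medians are also given without trial 1, and the mean differences of the 24 leading genes below were 0.866 to 1.12 times as large without it. Lgals3 itself does not check the labels, because its probe was well above background on KO arrays too and whether it lies in the deleted stretch was not examined. Its WT levels, added after the values were seen, were 4.77, 4.98 and 4.31 on chow and 3.61, 3.27 and 3.46 on HFD, lower on HFD in each trial (limma adjusted p = 0.27).

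The arrays carried the transcripts of endothelium. All 29 measured genes of an endothelial identity list (such as Cdh5, Kdr, Tie1, Erg and Cldn5) were well above background on every array. The median difference between HFD and chow over these genes was -0.02, beside 0.04 over all 13173 genes, and its sign turned to 0.06 when arrays were centred on their median. The cadherin of endothelial junctions, Cdh5, stood at 5.70, 5.61 and 5.70 on chow and at 6.02, 5.60 and 5.86 on HFD. Its 2 groups overlapped. The only members with an unadjusted limma p under 0.05 were the transcription factor Sox7, 0.53 higher on HFD, and the junction protein Pecam1, 0.76 lower. Over 17 genes of muscle capillary endothelium the median was -0.11, or 0.01 without trial 1, and none reached that p. The lipoprotein lipase anchor Gpihbp1, which marks these capillaries, measured 7.01, 7.08 and 6.82 on chow against 6.49, 7.16 and 6.64 on HFD.

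No probe passed an adjusted p of 0.05 in limma in this comparison (percent called 0). The smallest adjusted p was 0.063, 48 probes lay under 0.1, and 3099 of 24488 probes (12.7%) had an unadjusted p under 0.05, 1368 of them higher on HFD (5.59%) and 1731 lower (7.07%). Median centring turned that split to 1685 higher and 1323 lower. The limma fit took its spread from all 12 muscle arrays, KO included. On the 6 WT arrays alone 0 probes passed and 3269 had an unadjusted p under 0.05. There the limma adjusted p was 0.115 for Col15a1 and 0.091 for Treml4, beside 0.063 for both in the main fit. The methods' own test on the 3 ratios gave 2066 probes at an unadjusted p under 0.05 and 0 after Benjamini-Hochberg adjustment. By the criterion of the study, a log2 ratio past 1 in the same direction in each of the 3 trials, 218 probes were higher on HFD (0.89%) and 234 lower (0.956%). By gene, 152 were higher (1.15%) and 79 lower (0.6%). Of the probes past 1, 107 of the higher and 117 of the lower had entered through 1 diet alone. Just inside the criterion were Herc1, whose ratio nearest to 0 was -1.001, and Amz1, with 1.004. Just outside were Tjp3, at -0.998, and Rcn1, at 0.993. In single trials 11.8%, 21.3% and 15.0% of probes were past 1, so most differences of that size in 1 trial were not shared by the others. Without trial 1 the criterion was met by 465 higher and 906 lower probes, without trial 2 by 474 and 434, and without trial 3 by 551 and 470.

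The genes that follow are the 12 in each direction with the smallest limma p among those past 1 in all 3 trials. They were chosen by this contrast, so their values describe it and support nothing further. In 22 of the 24 the HFD and chow arrays did not overlap, Cytip and Abi3bp being the exceptions, as the plot of their levels shows. Over all genes 7.93% did not overlap with HFD higher and 6.11% with HFD lower. A choice by large ratios in each trial favours genes without overlap.

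**Figure D1:**
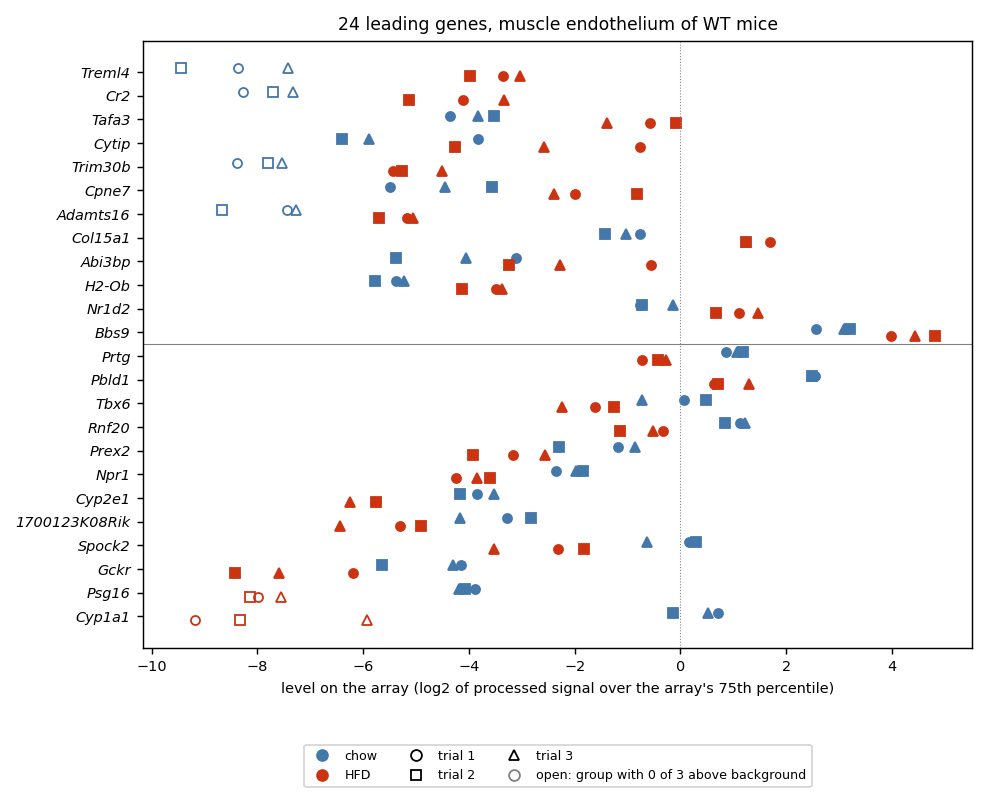
Levels of the 24 leading genes on the 6 arrays (x axis, log2 of processed signal over the array's 75th percentile; blue, chow; red, HFD; symbols, trials; open symbols, a group with no array well above background). The 12 genes above the line were higher on HFD in each trial and the 12 below it lower. Of the 24, chosen by this contrast, 22 show no overlap between the diets, beside 7.93% (HFD higher) and 6.11% (HFD lower) of all genes.

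Some of the higher genes encode matrix and secreted proteins. Col15a1 encodes a chain of collagen XV, which links basement membranes to the collagen around them. Its levels were -0.76, -1.43 and -1.02 on chow and 1.70, 1.24 and 1.25 on HFD. Every HFD array was above every chow array, with a mean difference of 2.47 ± 0.20 (SD, n = 3 trials), or 5.53-fold (limma adjusted p = 0.063). Abi3bp, a matrix protein, measured -3.11, -5.39 and -4.05 on chow and -0.56, -3.24 and -2.28 on HFD, a mean difference of 2.15. Tafa3, a secreted protein of the TAFA family, went from -4.36, -3.52 and -3.82 on chow to -0.58, -0.08 and -1.39 on HFD, 3.22 higher on average. For the metalloprotease Adamts16 the chow arrays were not well above background, and the HFD arrays were at least 1.92-fold higher (limma adjusted p = 0.092). Here and below, such a bound sets each array of the dimmer diet at no less than its lowest signal well above background. It holds for the processed signals used here and not for another background correction.

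Other higher genes are transcripts known from leukocytes. Treml4, a receptor of myeloid cells, was not well above background on any chow array and stood at -3.35, -3.99 and -3.03 on HFD, at least 6.94-fold higher (limma adjusted p = 0.063). Cr2, a complement receptor of B cells, was likewise not well above background on chow and at least 4.16-fold higher on HFD. H2-Ob, a chain of a class II-like molecule of B cells, measured -5.38, -5.78 and -5.23 on chow, where 2 of 3 arrays were above background, and -3.48, -4.13 and -3.37 on HFD. Cytip, a cytohesin-interacting protein of blood cells, was above background on 2 of 3 chow arrays and measured -3.84, -6.40 and -5.90 there and -0.77, -4.26 and -2.58 on HFD. Its paired differences of 3.06, 2.14 and 3.32 were close to each other although the level on both diets differed between trials. Trim30b, of the TRIM family, was not well above background on chow and at least 2.26-fold higher on HFD. The remaining higher genes were Cpne7, a copine (2.77 higher), Bbs9, a subunit of the ciliary BBSome (1.45 higher), and the clock repressor Nr1d2, described with the clock genes below.

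Among the lower genes Cyp1a1 stood far apart. It encodes a cytochrome P450 that is the classical target of the aryl hydrocarbon receptor. Its levels were 0.71, -0.15 and 0.53 on chow, well above background on each array, and -9.19, -8.34 and -5.92 on HFD, well above background on none. The signal was at least 92.6-fold lower on HFD (limma adjusted p = 0.083). The sequence by which that receptor is known to bind DNA has the core GCGTG, which was searched on both strands of the 250 bases before the gene's start. The match nearest the start lay 54 bases before it. The stretch around this match is shown, with the core in capitals, from RefSeq on GRCm38.p6 at chr9:57697549-57697578, + strand.
Cyp1a1: agataaggagGCGTGgccaacagacacaga
The same 5 letters lie in 28.2% of the 32851 promoter windows of that set, so the match is a description only. Other genes of the receptor's pathway, added after the values were seen, did not share the pattern: Cyp1b1 had paired differences of 2.19, 2.71 and 0.00, its repressor Ahrr 0.57, 3.48 and 0.99, and Nqo1 and Tiparp mean differences of -0.17 and 0.23. The probe of Cyp1a1 was thus the one of these 5 that was lower on HFD in each trial by more than 1.

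Several other lower genes belonged to signalling and metabolism. Npr1 encodes the receptor of atrial natriuretic peptide, a guanylyl cyclase that relaxes vessels and makes endothelium permeable. It measured -2.35, -1.84 and -1.97 on chow and -4.25, -3.60 and -3.85 on HFD, 1.85 ± 0.075 (SD, n = 3 trials) lower and without overlap (limma adjusted p = 0.087). Prex2, an exchange factor for the GTPase Rac, was 1.77 lower and Spock2, a testican proteoglycan, 2.50 lower. Gckr, the regulator of glucokinase, went from -4.15, -5.64 and -4.30 on chow to -6.19, -8.43 and -7.58 on HFD, where 1 of 3 arrays was above background. Cyp2e1, a P450 abundant in liver and fat, went from -3.84, -4.17 and -3.53 to -5.76, -5.76 and -6.25, with 2 of 3 HFD arrays above background. Rnf20, the ubiquitin ligase of histone H2B, measured 1.13, 0.85 and 1.23 on chow and -0.34, -1.14 and -0.51 on HFD. The T-box factor Tbx6 was 1.64 lower, the neural cell surface protein Prtg 1.52 and Pbld1 1.63 lower. Psg16, a pregnancy-specific glycoprotein, was not well above background on HFD and at least 4.34-fold lower, and the transcript 1700123K08Rik was 2.13 lower.

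Interferon-stimulated genes were higher on HFD as a group, by small amounts. Of 37 such genes with a tested probe, 34 had a mean above 0, 27 were higher in each of the 3 trials (73.0%, beside 20.7% of all genes) and 18 did not overlap between the diets with HFD higher (7.93% of all genes did so, and 6.11% with HFD lower). At an unadjusted limma p under 0.05 there were 15 of 37 higher, beside 6.46% of all genes, and 1 lower, and none passed after adjustment. Their median difference was 0.54, beside 0.04 over all genes, with medians of 0.37, 0.70 and 0.47 in trials 1 to 3 and of 0.58 without trial 1. It stayed between 0.45 and 0.61 under every scaling and background correction tried.

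The genes of the list differ in role and in size of difference. Gbp3, a guanylate-binding protein of the response to interferon gamma, measured 3.44, 3.46 and 3.52 on chow and 4.26, 4.63 and 4.33 on HFD. Ifit3, an inhibitor of viral translation, measured 3.83, 4.22 and 4.02 on chow and 4.56, 5.07 and 4.72 on HFD, with paired differences of 0.73, 0.85 and 0.70. In both the 3 trials lay close together and the limma adjusted p stayed at 0.205 or above. Past 1 in every trial were Oas1a, a synthase of the oligoadenylates that activate RNase L (1.15, 1.15 and 1.49), the nucleic acid sensor Zbp1 (4.46, 2.61 and 1.14, with 2 of 3 chow arrays above background) and Ifi44 (2.48, 2.56 and 1.48). These 3 of 37 are 8.11%, beside 1.15% of all genes. Ifi204, Gbp4, Ifit2, Iigp1, Ifih1, Isg15, Usp18, Ifit1 and Bst2 were between 0.54 and 1.16 higher with an unadjusted limma p under 0.05. Against this trend, Irf8, a factor also known from myeloid and B cells, was lower in each trial (-0.82, -1.62 and -0.60), and the membrane protein Ifitm1 was lower by 0.17, 0.43 and 1.02.

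**Figure D2:**
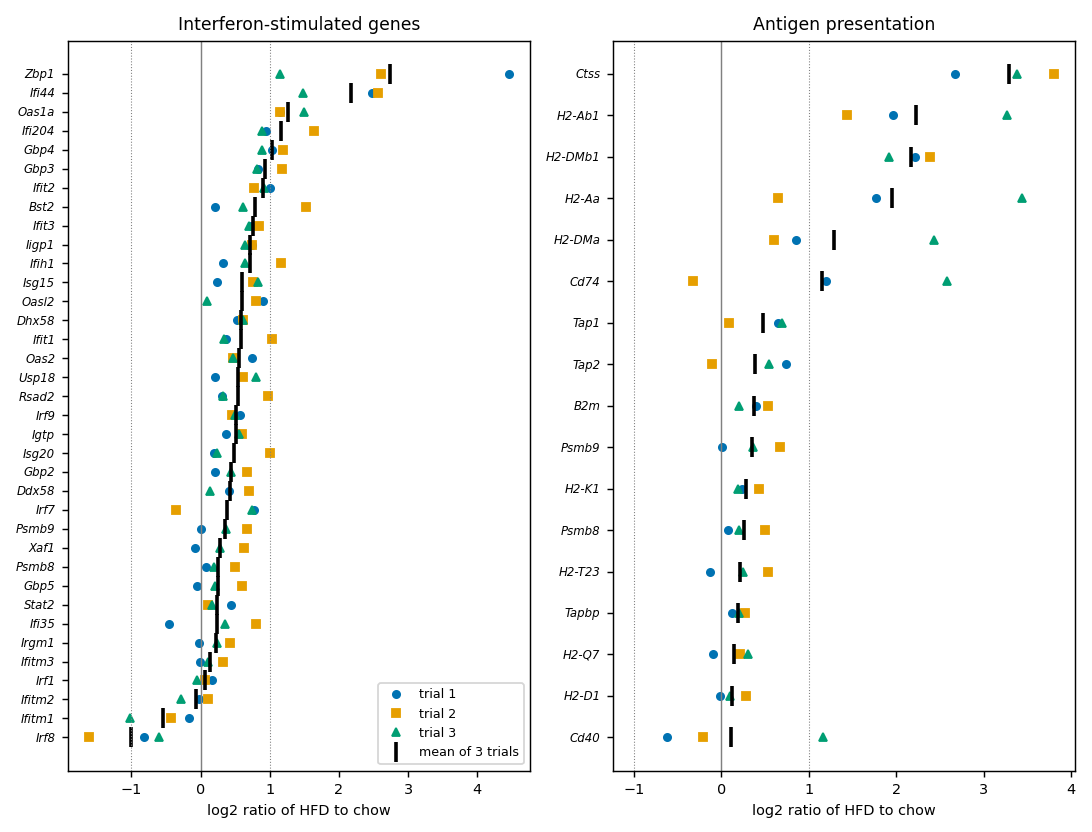
Log2 ratio of HFD to chow (x axis) for the tested interferon-stimulated genes but 1 (left) and antigen presentation gene (right); points are the 3 trials, bars their mean, dotted lines a ratio of 1 on the log2 scale. On the left all means but 3 lie above 0, most under 1, and on the right all 17 do, with Ctss farthest out and class II genes next.

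IRF and STAT factors reach such genes through the interferon-stimulated response element, whose core was searched as GAAA, any 2 bases and again GAAA on both strands of the 250 bases before each start. It was found in 12 of the 29 promoters of the list that RefSeq's table holds (41.4%), and in 978 of 32851 promoters of all genes (2.98%). Ifitm2 and Irgm1, which carry it too, had means of -0.07 and 0.22. Windows of 30 bases are shown for 5 members, 5′ to 3′ on the strand of the gene, with the match nearest the start in capitals. TTTC, 2 bases and TTTC is the core read on the other strand. In Oas1a, Isg15 and Bst2 a further match overlaps the one in capitals and is left in lower case before it. They lie at chr5:120907526-120907555, - strand (Oas1a), chr19:34583397-34583426, + strand (Ifit3), chr4:156200865-156200894, - strand (Isg15), chr8:71537577-71537606, - strand (Bst2), and chr11:58199512-58199541, + strand (Igtp) of GRCm38.p6.
Oas1a: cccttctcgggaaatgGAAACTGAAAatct
Ifit3: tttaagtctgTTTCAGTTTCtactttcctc
Isg15: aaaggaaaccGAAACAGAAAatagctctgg
Bst2: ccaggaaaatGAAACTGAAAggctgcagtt
Igtp: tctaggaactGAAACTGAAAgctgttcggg
The mean differences of these 5 genes were 1.27, 0.76, 0.60, 0.79 and 0.51 in that order.

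Antigen presentation genes were all higher on HFD in their means, 17 of 17, with a median of 0.38 (0.39 without trial 1) and 11 higher in each trial (20.7% of all genes were). Over all genes 7114 of 13173 had a mean above 0. Only 2 of the 17 had an unadjusted limma p under 0.05, beside 6.46% of all genes that were higher at that p. None passed after adjustment. The class II genes gave the large values. H2-Ab1, a chain of the class II molecule, measured 0.40, -2.09 and -1.19 on chow and 2.36, -0.65 and 2.07 on HFD, and H2-DMb1, which loads peptides onto it, -0.97, -2.58 and -1.48 on chow and 1.25, -0.19 and 0.43 on HFD. Both were past 1 in every trial, as was the lysosomal protease Ctss, which cleaves the class II chaperone (2.67, 3.81 and 3.38). These 3 of 17 are 17.6%, beside 1.15% of all genes. Without trial 2 there were 5 (29.4%, beside 2.23% of all genes). The class I genes of every cell were closer to 0: H2-K1, H2-D1 and B2m lay between 0.12 and 0.38.

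Transcripts of leukocytes were higher with them, although CD45+ cells had been gated out. Of 19 macrophage markers on the array, 13 to 17 were above background on chow arrays and 15 to 19 on HFD arrays. Their summed signal, in multiples of the 75th percentile, was 13.2, 2.95 and 5.10 on chow and 33.8, 5.05 and 21.6 on HFD in trials 1 to 3, higher on HFD within each trial but overlapping between the groups. Of the 16 tested, 14 had a mean above 0 and 2 a mean below it. Among the 16, 5 entered through the HFD arrays alone and had to be higher to some degree, and 1 through the chow arrays alone. The 10 that were above background on all 6 arrays had a median difference of 1.82. Ptprc, which encodes CD45 itself, was above background on 1 of 3 chow arrays and on all HFD arrays, with paired differences of 3.17, 3.83 and 6.45 (limma adjusted p = 0.14). Csf1r, the receptor that macrophages depend on, measured -1.24, -5.48 and -1.81 on chow and 0.67, -2.20 and -0.42 on HFD. Past 1 in every trial (1.15% of all genes) were Csf1r, Cd52 and Ctss, above background on all 6 arrays, and Ptprc and Adgre1, which had entered through the HFD arrays alone. These 5 were 8 without trial 1 or without trial 2, settings in which 2.02% and 2.23% of all genes met the criterion. The 12 markers of T, B and NK cells summed to between 0.429 and 0.934 on chow and to 3.33, 0.511 and 2.30 on HFD. Of these Cd79b, a chain of the B cell receptor, had paired differences of 2.75, 0.71 and 4.24 and Ms4a1 of 3.18, -0.52 and 5.96, so that trial 2 did not take part. The sum for granulocytes and mast cells was 13.2 on the HFD array of trial 3 and under 1 on the other 5 arrays. Csf3r was above background on none, and the mast cell protease Mcpt4 was above background on every HFD array and no chow array, at least 6.69-fold higher (limma adjusted p = 0.26). In a bulk sample, more cells of a type and more RNA per cell cannot be told apart. The part that leukocyte transcripts have in the interferon and antigen presentation values was not tested.

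**Figure D3:**
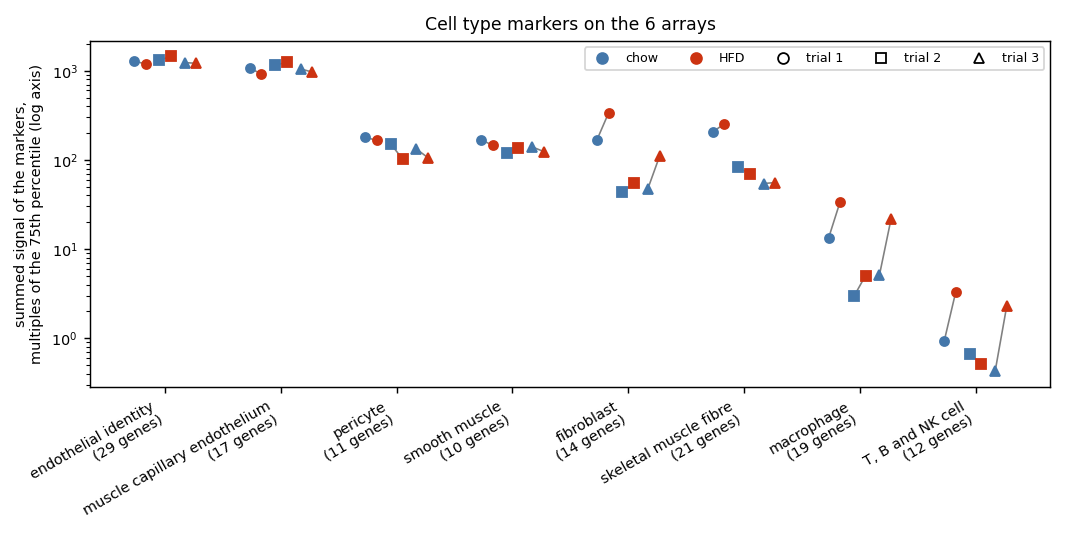
Summed signal of the marker genes of 8 cell types on the 6 arrays (y axis, multiples of the array's 75th percentile, log scale; blue, chow; red, HFD; lines join the arrays of a trial). Sums of endothelial identity stay between 1195 and 1445 on both diets, and those of muscle capillary endothelium between 917 and 1247. The fibroblast and macrophage sums are higher on HFD within each trial and differ more between trials than between diets.

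Genes of the interstitial matrix and of fibroblasts formed the other group that was higher on HFD. Of 14 fibroblast markers tested, 14 had a mean above 0 and 9 were higher in each trial (20.7% of all genes were). Their median was 1.12 (0.91 without trial 1) and, by trial, 1.49, 0.41 and 1.27. At an unadjusted limma p under 0.05 there were 6 higher, beside 6.46% of all genes, and none passed after adjustment. The diets overlapped in each of the 14, while 7.93% of all genes were without overlap and higher on HFD. Lum, a small proteoglycan that orders collagen fibrils, measured 1.48, -2.48 and -1.38 on chow and 3.84, 0.64 and 1.72 on HFD, 2.87 higher (limma adjusted p = 0.17). Serpinf1, Clec3b and Smoc2 were also past 1 in every trial, which makes 4 of 14 (28.6%, beside 1.15% of all genes). Without trial 2 these were 10 of 14 (71.4%, beside 2.23% of all genes). The summed fibroblast signal was 168, 43.8 and 47.7 on chow and 336, 54.9 and 109 on HFD. It was higher on HFD in each trial, yet chow in trial 1 exceeded HFD in trials 2 and 3. Over 30 genes of the interstitial matrix the median was 0.56, and 0.26 without trial 1. Of these 30, 2 did not overlap with HFD higher and 1 with HFD lower, beside 7.93% and 6.11% of all genes. The members past 1 in every trial were 3 (10%, beside 1.15% of all genes), or 9 without trial 2 (beside 2.23%). These 3 were Lum, the lysyl oxidase Loxl1 (1.60, 1.09 and 1.46) and the matricellular protein Tnc, which was above background on 1 of 3 chow arrays (-8.42, -8.19 and -4.51 on chow, -1.69, -4.42 and -3.42 on HFD).

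Proteins that cut or protect the matrix behaved in a similar way. Adamts5, which cleaves proteoglycans such as versican, measured 0.14, -0.71 and -0.01 on chow and 1.39, 0.91 and 1.60 on HFD, 1.49 higher with a SD of 0.21 over 3 trials and no overlap (limma adjusted p = 0.094). The membrane metalloprotease Mmp15 measured 0.61, 0.22 and 0.88 on chow and 1.73, 1.69 and 1.92 on HFD. The inhibitor Timp1 measured -0.52, -1.44 and -1.51 on chow and 0.73, -0.32 and 0.99 on HFD. Of the 21 proteases and inhibitors tested these 3 were past 1 in every trial (14.3%, beside 1.15% of all genes). Without trial 3 there were 5 (23.8%, beside 2.66% of all genes). The median was 0.39, and Mmp11 was lower (-0.18, -1.20 and -1.31).

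In the basement membrane list the median difference was smaller than in the interstitial matrix. Col15a1, described above, was past 1 in every trial, and the laminin chain Lamb1 measured 0.83, 0.47 and 1.80 on chow and 2.76, 2.44 and 2.64 on HFD (1.58 higher, limma adjusted p = 0.195). The collagen IV chains that make up the sheet itself stood at 0.25 (Col4a1) and 0.30 (Col4a2), and Lama4 of the endothelial laminins at 0.47, each higher in every trial and none past 1. Over 20 genes the median was 0.28, 16 had a mean above 0, and the median was 0.19 without trial 1. In each trial 9 of the 20 were higher (45%, beside 20.7% of all genes) and 1 lower (16.3%). The diets did not overlap in 6 with HFD higher and in 0 with HFD lower, beside 7.93% and 6.11% of all genes.

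Markers of the cells around capillaries differed the other way. Of 11 pericyte genes tested, 8 had a mean below 0 and 7 were lower in each trial (16.3% of all genes were), with a median of -0.48 that was -0.61 without trial 1 and -0.31 without trial 2. Rgs5 measured 3.71, 2.67 and 3.75 on chow and 3.03, 1.69 and 2.87 on HFD, the proteoglycan Cspg4 (NG2) was 1.05 lower and the potassium channel subunit Kcnj8 0.66 lower, each with an unadjusted limma p under 0.05. Mcam, which endothelium also makes, was 0.82 higher, and another of its probes had the opposite sign. In the smooth muscle list 7 of 10 genes had a mean below 0 and 3 a mean above it. In each trial 5 were lower (16.3% of all genes were) and 2 higher (20.7%). The list had a median of -0.49 (-0.48 without trial 1 and -0.28 without trial 2), with Mylk, Myh11 and Smtn between 0.76 and 0.92 lower. Its summed signal overlapped between the diets, as did that of pericytes, at 179, 150 and 132 on chow and 165, 102 and 106 on HFD, and that of muscle fibre, at 206, 82.4 and 54.3 on chow and 253, 69.5 and 55.7 on HFD. The high muscle fibre and fibroblast sums of trial 1 were found on both diets.

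In the handling of fatty acids, the cytosolic binding proteins Fabp5 and Fabp3 were past 1 in every trial. They were 2 of 23 genes (8.70%, beside 1.15% of all genes), and the luminal genes Cd36, Gpihbp1 and Lpl were not among them. Fabp5, a fatty acid-binding protein of endothelium, measured -1.32, -0.91 and -0.15 on chow and 0.14, 0.91 and 0.95 on HFD, 1.46 ± 0.36 (SD, n = 3 trials) higher (limma adjusted p = 0.13). Fabp3, which muscle fibres make in large amounts, was higher by 1.13, 1.01 and 1.74, over levels of 3.44, 2.01 and 0.67 on chow that followed the muscle fibre sum, and whether fibre RNA takes part was not tested. The acyl-CoA synthetase Slc27a3 was 1.01 higher without overlap (0.23, 0.61 and 0.98 on chow, 1.02, 1.85 and 1.97 on HFD). By contrast Cd36, the fatty acid translocase, had a mean of 0.18, Fabp4 of -0.11, Gpihbp1 of -0.20 and Lpl, the lipase itself, of -0.50. Lpl was lower in each trial and without overlap (5.63, 5.66 and 5.52 on chow, 5.02, 5.19 and 5.10 on HFD). Of 23 such genes 3 were higher (6.46% of all genes) and none lower (5.03%) at an unadjusted limma p under 0.05, and the median was 0.15. None of 32 respiratory chain genes reached that p, and the coactivator Ppargc1a was lower by 1.14, 4.90 and 1.20.

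The apelin pair was higher on both sides. Aplnr, the receptor of apelin, a peptide of sprouting and venous endothelium, measured 3.23, 3.10 and 3.16 on chow and 4.91, 5.03 and 4.72 on HFD, 1.73 ± 0.19 (SD, n = 3 trials) higher, or 3.31-fold (limma adjusted p = 0.14). Its ligand Apln measured 0.64, 0.97 and 1.72 on chow and 2.27, 2.30 and 2.39 on HFD, higher in each trial and without overlap, with a limma adjusted p of 0.44. Other genes of sprouting vessels went different ways. Esm1 was lower by 2.27, 0.61 and 0.96, and Vegfa differed in sign between trials. Over the 28 tip cell and angiogenesis genes the median was -0.14.

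Vascular tone genes had no common direction, with a median of -0.05 over 24, which was 0.03 with median centring and -0.05 without trial 1. Tbxa2r, the thromboxane receptor, which constricts vessels, measured -0.86, -0.45 and -0.25 on chow and 1.06, 1.55 and 1.14 on HFD, 1.77 higher in mean and without overlap (limma adjusted p = 0.094). At an unadjusted limma p under 0.05 there were 5 of 24 lower, beside 5.03% of all genes. Both subunits of the soluble guanylyl cyclase that answers nitric oxide were among them, Gucy1a1 (1.51, 0.65 and 1.59 on chow, 0.79, -1.44 and -0.77 on HFD) and Gucy1b1 (2.58, 2.35 and 2.79 on chow, 1.84, 1.50 and 1.81 on HFD), beside the prostaglandin E2 receptor Ptger4 (-1.90, -1.96 and -0.97), Ace and Edn1. Gucy1a1 and Gucy1b1 are known from pericytes and smooth muscle, whose markers were also lower, and their part was not tested. The endothelial nitric oxide synthase Nos3 stood at 3.06, 3.66 and 3.17 on chow and 3.00, 3.52 and 3.42 on HFD.

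**Figure D4:**
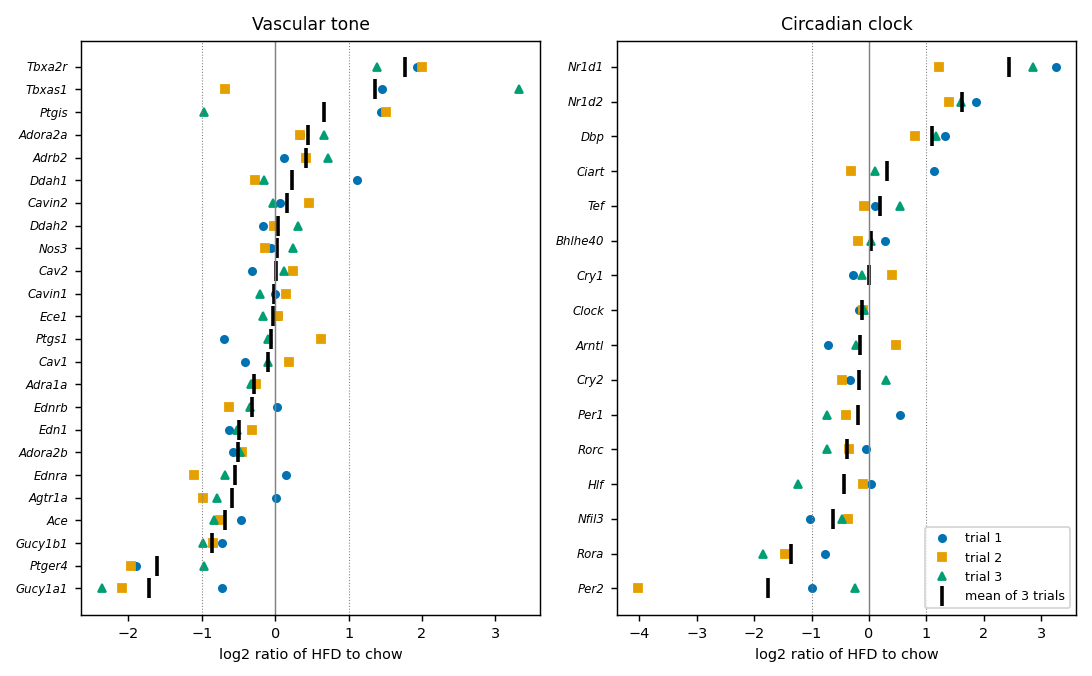
Log2 ratio of HFD to chow (x axis) for each tested vascular tone gene (left) and circadian clock gene (right); points are the 3 trials, bars their mean, dotted lines a ratio of 1 on the log2 scale. Tbxa2r on the left and Nr1d1 and Nr1d2 on the right are past 1 in each trial, and Gucy1a1 and Ptger4 are the lowest on the left.

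In the circadian clock, the repressors of the stabilising loop were higher and its activator Rora was lower. The nuclear receptor Nr1d1 (REV-ERB alpha), which represses Arntl, measured -3.27, -2.70 and -2.45 on chow and -0.02, -1.48 and 0.41 on HFD, 2.44 higher (limma adjusted p = 0.16). Its relative Nr1d2 measured -0.76, -0.72 and -0.15 on chow and 1.11, 0.67 and 1.46 on HFD, 1.62 ± 0.24 (SD, n = 3 trials) higher (limma adjusted p = 0.092). Dbp, an output factor driven from the same elements, was higher by 1.32, 0.81 and 1.17. Rora, which competes with the REV-ERB receptors as an activator, was lower by 0.76, 1.46 and 1.84. Per2 was lower by 1.00, 4.03 and 0.25, a mean that rests on trial 2. The core activators Arntl and Clock had means of -0.16 and -0.13, with Arntl of both signs. Of 16 clock genes tested 3 were higher (6.46% of all genes) and 2 lower (5.03%) at an unadjusted limma p under 0.05, and 2 were past 1 in every trial (12.5%, beside 1.15% of all genes). The time of day at which tissue was taken is not given in the sources used here, and its part cannot be told apart from that of the diet.

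Among the genes that the study names for muscle endothelium, 37 of 38 had a tested probe. These were chosen by the study on the same arrays, so that their direction is no independent evidence. Past 1 in every trial and higher were 6 of them, Col15a1, Tbxa2r, Fabp5, Aplnr, Tnc and Ctss, and 2 were lower, among them the leucine zipper protein Crebl2, beside 1.15% and 0.6% of all genes. At an unadjusted limma p under 0.05 there were 12 higher and 12 lower, beside 6.46% and 5.03%. Igf1 measured -0.81, -1.43 and 0.12 on chow and 0.42, 1.13 and 0.87 on HFD, and its receptor Igf1r 3.78, 3.71 and 2.89 on chow and 3.04, 1.72 and 1.98 on HFD, so the ligand was higher and the receptor lower in each trial, though 1 of 2 further probes of Igf1r had the opposite sign. The hypoxia factor Epas1 was lower by 0.48, 1.53 and 1.21 and the immediate early gene Ier2 by 0.91, 1.47 and 1.20.

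Leukocyte recruitment and growth factor genes gave a few further differences at an unadjusted limma p under 0.05, none of which passed after adjustment. Vcam1, the adhesion molecule that binds lymphocytes and monocytes, measured 2.22, 1.82 and 2.71 on chow and 2.87, 3.20 and 3.32 on HFD. The other adhesion genes at that p were lower, Pecam1 by 0.76 and Cd99 by 0.50 on average. Of the 13 adhesion genes tested, 9 were higher in each trial (69.2%, beside 20.7% of all genes) and 2 lower (16.3% of all genes were). Their median was 0.29, or 0.34 without trial 1. The interferon gamma-induced chemokine Cxcl9 measured 2.37, 2.74 and 2.44 on chow and 3.26, 4.13 and 4.01 on HFD. Ccl2, which attracts monocytes, was past 1 in every trial (1.07, 1.40 and 2.37). Bmp4 was lower by 1.61, 1.34 and 0.73 without overlap (2.24, 2.62 and 2.30 on chow). In lipid synthesis, the sterol enzymes Sqle and Dhcr7 were 1.18 and 0.69 higher, while Acaca was 1.02 lower and the LXR receptors Nr1h3 and Nr1h2 were 0.87 and 0.78 lower, though another probe of Acaca and of Dhcr7 had the opposite sign.

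The same diets were compared in KO muscle and in WT aorta, with 6 arrays each that none of the 3 comparisons shares. By their own filters, 232 of 24781 probes (0.936%) in KO muscle and 395 of 25074 (1.58%) in WT aorta were past 1 in every trial. Of the 218 probes past 1 and higher in WT muscle, the KO mean was above 0 for 195 (89.4%, beside 50.3% of all probes tested) and the aortic mean for 176 (80.7%, beside 51.7%). Of the 234 lower ones, the KO mean was below 0 for 183 (78.2%, beside 49.7%) and the aortic mean for 147 (62.8%, beside 48.3%). With the KO means taken over trials 2 and 3 alone, the shares were 81.7% of the higher probes, beside 54.3%, and 71.8% of the lower ones, beside 45.7%. With the aortic means over these trials they were 82.1% and 62.4%, for which the shares over all probes were not computed. The number past 1 in the same direction in WT and KO muscle was 53.

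**Figure D5:**
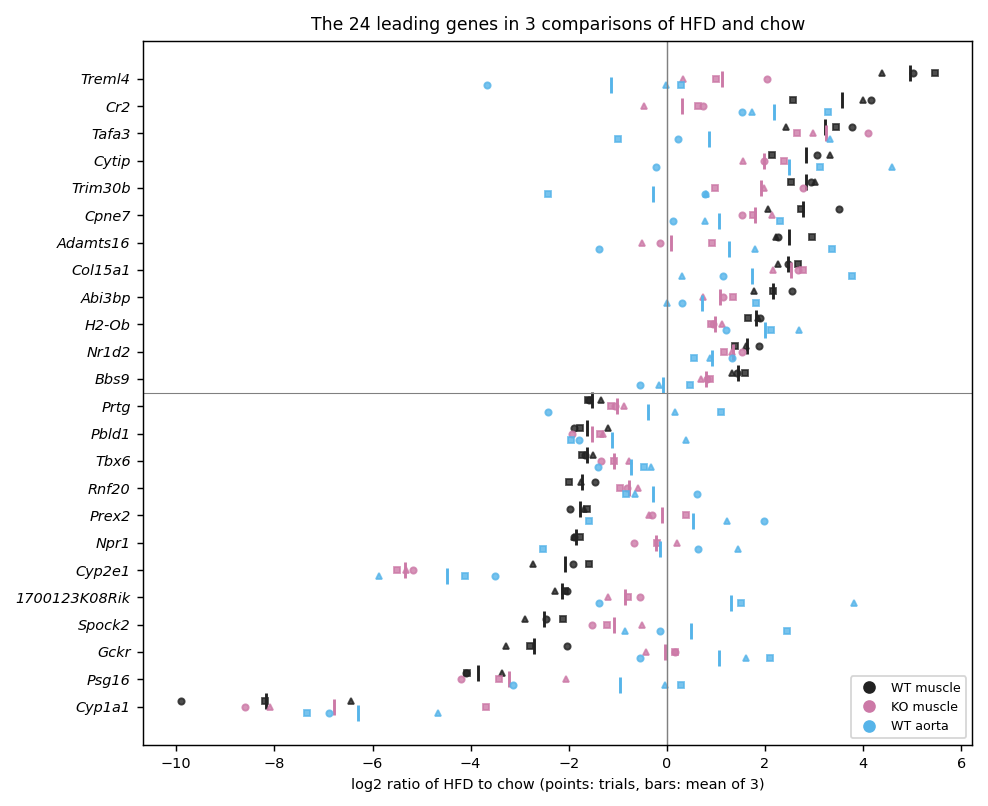
Log2 ratio of HFD to chow (x axis) of the 24 leading genes of WT muscle in WT muscle, KO muscle and WT aorta; points are the 3 trials of each, bars their mean. Col15a1, Nr1d2, Cyp1a1 and Cyp2e1 lie on the same side in all 9 points, while Npr1, Prex2 and Gckr are lower in WT muscle alone in every trial.

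Of the 12 leading higher genes, 10 were higher in each KO trial and 6 in each aortic trial, beside 13.4% and 13.5% of all probes. Of the 12 lower genes 9 were lower in each KO trial and 3 in each aortic trial, beside 14.8% and 12.5%. Col15a1 differed by 2.54 in KO muscle and 1.74 in aorta, and Cyp1a1, for which WT muscle gives only a bound, was lower in each trial of both. Npr1 stood at -0.67, -0.20 and 0.20 in the KO trials and Gckr at 0.15, 0.16 and -0.43. The difference between the responses of WT and KO muscle was tested in limma, and 0 of 24488 probes passed an adjusted p of 0.05, while 997 (4.07%) had an unadjusted p under 0.05. Without trial 1 the counts were 0 and 988. The smallest p belonged to genes that include Cyp2e1, 3.25 less negative in WT, Treml4, 3.83 higher in WT, and Gckr, 2.67 lower in WT, each with a limma adjusted p of 0.71. Treml4 was not well above background on any WT chow array, and Gckr and Cyp2e1 were on 1 and 2 of 3 WT HFD arrays, so these sizes depend on signals near background. Between WT muscle and WT aorta 0 of 26574 probes passed in limma and 1509 (5.68%) had an unadjusted p under 0.05, or 0 and 1519 without trial 1. The leading genes there, Tmod4 of muscle fibre and Adipoq, Retn and Car3 of adipocytes, had differences in muscle of -0.02, 0.24, -0.29 and 0.10, and in aorta of between -5.47 and -3.65.

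Among the lists, the interferon-stimulated genes had a median of 0.50 in KO muscle and 0.23 in aorta, fibroblast markers of 1.22 and 0.31, and macrophage markers of 1.07 and -0.75. The pericyte median was -0.09 in KO muscle and 0.53 in aorta, beside -0.48 in WT muscle. These differences between comparisons were not tested as lists. In none of the 3 comparisons was the median over all genes farther from 0 than 0.05.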

How the data were processed

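Amplified Cy3-labelled RNA of sorted cells was hybridised to one-colour Agilent Whole Mouse Genome arrays of 45018 spots. The deposited intensity values are processed signals, background-subtracted and detrended within each array by Feature Extraction (version 10.5.1.1 per the file headers, 9.1 per the labels). The authors' deposited log2 table holds the same signals plus a constant per array, and was used as an alternative. Spots flagged as outliers were left out, spots of a probe were averaged, and the log2 of the signal over the 75th percentile of non-control spots was taken. Probes were named through RefSeq transcripts of GRCm38.p6, and 27198 of 41174 had a symbol. limma 3.58.1 in R 4.3.3 was fitted to the 12 muscle arrays with a block for each trial of each strain and Benjamini-Hochberg adjustment, and was tested on simulated data. Each pair of a trial shared a slide within a tissue and a scan session, so the ratios by trial are also the values within batches. Paired arrays deviated together from their group means (correlations of 0.34, 0.20 and 0.33).

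Named genes were, in each direction, the 12 with the smallest limma p among those past 1 log2 in all 3 trials, the genes the study names, members of gene lists past 1 in all trials or with the smallest p, defining markers, and the 5 with the smallest p in each contrast of responses. The members and lists were chosen with earlier results of these data known. Alternatives were other background correction, scaling, filters, blocks and samples in the fit, the methods' test on the ratios, and each trial left out. The normexp alternative used the median spot signal in place of the mean signal that had been planned. Labels do not say that pools came from separate cohorts, so p-values measure the spread between these pools, and the small number of arrays limits precision. Single-gene values of a few list members are not reported here.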

Additional observations from a re-analysis of the deposited data

Results flagged for a closer look

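A set of 5 genes differed one way in every trial of WT muscle and the opposite way in every trial of another comparison. Between WT and KO muscle these were Slc1a4, an amino acid transporter, with log2 differences of 1.61, 0.95 and 1.87 in WT and -0.95, -0.72 and -1.36 in KO (2.49 between them), and Pard3b, a polarity protein, with -1.01, -3.48 and -2.86 in WT and 1.77, 2.38 and 1.75 in KO (-4.42 between them). The difference was tested in limma and did not pass for either (adjusted p = 0.71). Between WT muscle and WT aorta they were Tmem45b, with 2.12, 4.31 and 3.29 in muscle and -3.92, -2.54 and -1.51 in aorta (5.90, limma adjusted p = 0.34), Retnla, a secreted protein of alternatively activated macrophages and fat, with 0.66, 5.85 and 2.71 against -5.21, -2.12 and -5.93 (7.49, limma adjusted p = 0.55), and Fcer1g, a signalling chain of Fc receptors on myeloid cells, with 0.88, 1.24 and 1.95 against -1.27, -0.71 and -1.29 (2.45, limma adjusted p = 0.35). Fcer1g is a member of the macrophage list, whose 10 members above background on all 6 WT muscle arrays had a median of 1.82 there. The part of macrophage transcripts was not tested. In WT muscle, Pard3b exceeded background clearly on 1 of 3 arrays of the HFD group and Tmem45b on 1 of 3 of the chow group, so their sizes depend on signals near background. With normexp correction the WT muscle difference of Pard3b was -1.35 in place of -2.45, and that of Tmem45b 1.75 in place of 3.24.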

How the results depend on the processing

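The count of probes passing an adjusted p of 0.05 in limma, 0 as reported, was 9 with normexp background correction (6 higher, 3 lower), 16 with median centring (11 higher, 5 lower) and 3 with the slide as block, and 0 with each trial left out. Without the replicate block it was 1, Col15a1 (adjusted p = 0.038, and between 0.020 and 0.55 over all settings). Without that block the unadjusted counts were 546 for WT against KO muscle and 940 for muscle against aorta, against 997 and 1509 with the trials paired. Probes past 1 in all trials were 129 higher and 128 lower with normexp, 111 and 117 when restricted to those above background on all 6 arrays, and 373 higher with no filter. With a trial left out they were between 465 and 551 higher and between 434 and 906 lower.

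The sign turned for genes near 0. Tmod4 was 0.044 with normexp, 0.026 with quantile normalization and 0.052 with median centring. With a trial left out the ranges were -0.047 to 0.015 for Tmod4, -0.17 to 0.57 for Adipoq, -0.79 to 0.13 for Retn, -0.45 to 0.38 for Car3, -0.55 to 0.035 for Hdlbp, -0.95 to 1.68 for Clec1b and -0.27 to 0.28 for Cflar. The cause was not tested. Among list medians, which carry no test, 29 of 378 under the alternatives had the other sign, in 14 of 42 lists with medians of at most 0.29 in size. Of values for genes, 19 passed the threshold under an alternative. None of the 24 leading genes turned sign. Probes near background carry only bounds, and these hold for the main processing alone. With normexp correction the log2 differences were -5.74 for Cyp1a1, 2.55 for Treml4, 1.78 for Cr2, -1.93 for Psg16 and 0.90 for Adamts16. Each of these is smaller in size than the bound given above for that gene, while that of Trim30b, at 1.23, is not.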
